A study of Mus musculus with 12 samples.

Results

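Homeostatic chemokines are secreted signals that a tissue makes without inflammation and that set where resting leukocytes go. The 8 genes described here are the chemokines Ccl19, Ccl21a, Ccl27a, Cxcl12, Cxcl13 and Cxcl14 and the receptors Ccr7 and Cxcr4. They were picked by gene symbol from 18505 genes in an RNA-seq table of mouse back skin, with earlier results of these data known. The table held 12 samples, 4 in each of 3 groups, all from wild-type BALB/c mice on day 10. The animals were male mice of 5 to 6 weeks of age. The control group received petroleum jelly on shaved back skin. The IMQ + NS group received imiquimod (IMQ), a cream that activates toll-like receptor signalling and causes psoriasis-like lesions. Its skin was then covered with saline, held in place by gauze and a polyurethane film. The IMQ + BZLF group received IMQ followed by the Banzhilian formula (BZLF), a largely botanical preparation laid on the lesion under the same gauze and film. The dose is not given for the sequenced samples in the sources used here. The study's methods describe no such cover for control skin, so effects of IMQ and of the cover cannot be told apart against control skin.

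In skin, CCL21 from lymphatic vessels and CCL19 from mature dendritic cells and stromal cells both bind CCR7 and draw dendritic cells and T cells towards lymphatics and lymph nodes. CCL27, made by epidermal keratinocytes, attracts skin-homing T cells through CCR10. CXCL12 from fibroblasts and vessel walls acts on CXCR4, CXCL13 attracts B cells through CXCR5, and CXCL14 is made steadily by epithelium. Atypical receptors such as ACKR3 and ACKR4 take up these ligands without classical signalling and so shape their gradients.

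Values are fragment counts scaled by transcript length and by the fragments mapped in the sample (FPKM), and a fold change is a difference in log2(FPKM + 0.1), which understates changes of low genes. A gene was called differentially expressed (DEG) at a Benjamini-Hochberg adjusted p below 0.05 with limma and a log2 fold change above 1 or below -1. All 8 genes were among the 15288 genes with a mean of at least 0.1 FPKM that were tested. Column sums of FPKM ranged from 444660 to 506622, and the read depth behind a single value is unknown. Control replicate 2 stood apart from the other controls, with a summed hair follicle marker level of 116 FPKM against 6.17 FPKM in the lowest control sample. The labelled tissue was checked against epidermal keratinocyte markers, whose sum ranged from 2481 to 9181 FPKM over the samples. Nothing in the labels says that the 4 samples of a group came from separate mice, so p-values describe the spread between these samples.

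By level, which FPKM scales for transcript length, Ccl21a led the 8 genes in control skin at 264 ± 34.9 FPKM (SD, n = 4). Cxcl12 at 48.2 ± 8.78 FPKM and Cxcl14 at 46.9 ± 8.38 FPKM followed and could not be told apart within their spread. Next came Ccl27a at 17.4 ± 2.48 and Cxcl13 at 11.6 ± 5.21 FPKM, whose ranges overlapped, then Cxcr4 at 3.77 ± 1.12 FPKM. Ccl19 at 1.07 ± 0.0947 and Ccr7 at 0.718 ± 0.292 FPKM were lowest, and their ranges also overlapped. The order was different in IMQ + NS skin, where Cxcl14 at 115 ± 9.63 FPKM led and Cxcl13 at 67.6 ± 27.5, Ccl21a at 61.0 ± 9.41 and Cxcl12 at 50.7 ± 6.65 FPKM overlapped. In IMQ + BZLF skin Cxcl14 again led at 105 ± 6.66 FPKM, followed by Ccl21a at 74.3 ± 21.6 and Cxcl12 at 45.4 ± 4.39 FPKM, which overlapped.

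**Figure D1:**
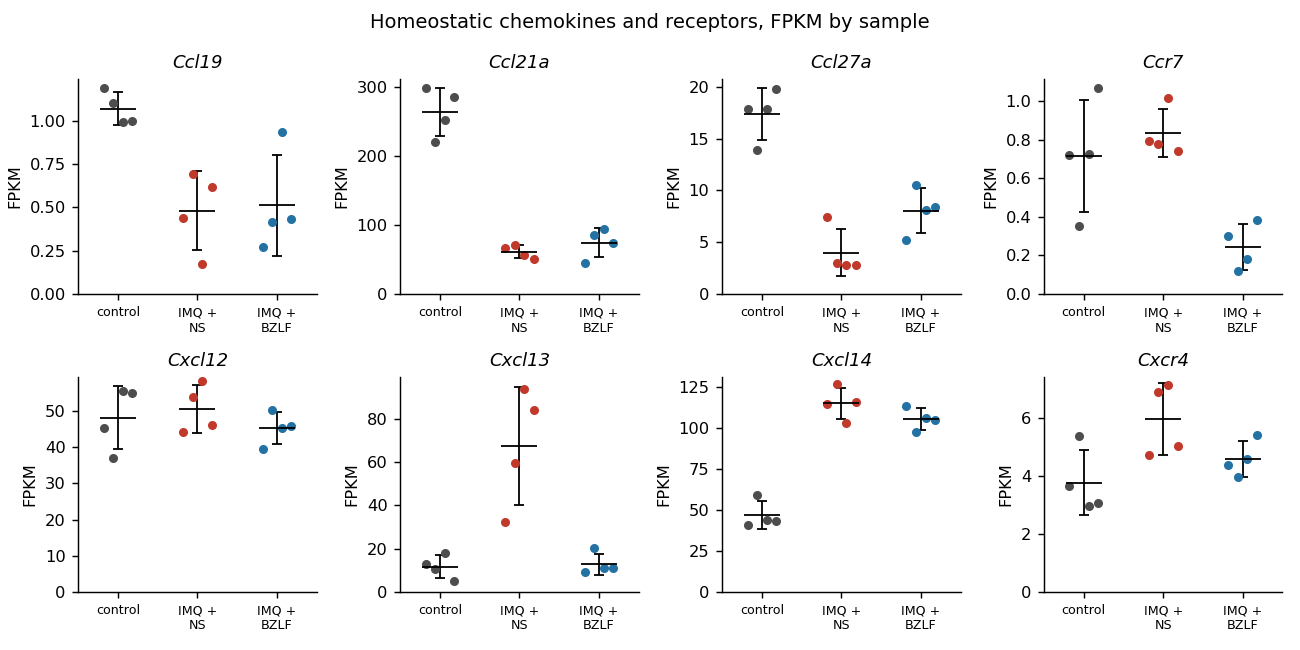
FPKM of the 8 genes (vertical axes, linear and starting at 0) for control, IMQ + NS and IMQ + BZLF samples. Points are samples, long bars are means and error bars are SD (n = 4); Ccl21a is higher in every control sample and Cxcl13 in every IMQ + NS sample than in any sample of the other groups, and Ccr7 is lower in every IMQ + BZLF sample than in any IMQ + NS sample.

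The comparison of IMQ + NS with control skin asks what the psoriasis model, which is IMQ with its saline cover, does to these genes. Ccl21a, Ccl27a and Ccl19 fell, Cxcl13 and Cxcl14 rose, and Cxcl12, Cxcr4 and Ccr7 were not called. So 2 of the 8 genes were called higher, against 11.4% of all genes tested, and 3 were called lower, against 11.0%. Groups did not overlap for 5 of the 8 genes, against 49.4% of all genes, so non-overlap was common throughout the table. The median log2 fold change of the 8 genes was 0.17, against 0.05 over all genes tested.

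Setting IMQ + BZLF skin against IMQ + NS skin asks what the formula does to the lesion. Cxcl13 and Ccr7 fell and the other 6 genes were not called. That is 2 of 8 called lower, against 2.20% of all genes tested, and 0 of 8 called higher by limma, against 0.321%, with Ccl27a the 1 gene higher at an unadjusted p below 0.05. The 49 higher calls behind 0.321% became 19 without IMQ + BZLF replicate 2 and 78 without IMQ + BZLF replicate 1, the lowest and highest counts with 1 sample left out. Of the 8 genes, 2 had groups that did not overlap, against 15.2% of all genes. Their median log2 fold change was -0.14, against -0.02 over all genes. This comparison shares the IMQ + NS samples with the previous one, so a chance high or low value there enters both with opposite sign.

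Treated lesions were also compared with control skin, with which the first comparison shares the control samples. Ccl21a, Ccl27a, Ccl19 and Ccr7 were lower and Cxcl14 was higher in IMQ + BZLF than in control skin. These are 4 of 8 called lower, against 10.1% of all genes, and 1 called higher, against 9.65%. Groups did not overlap for 4 of the 8, against 47.5% of all genes. The median log2 fold change was -0.56, against -0.02 over all genes.

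**Figure D2:**
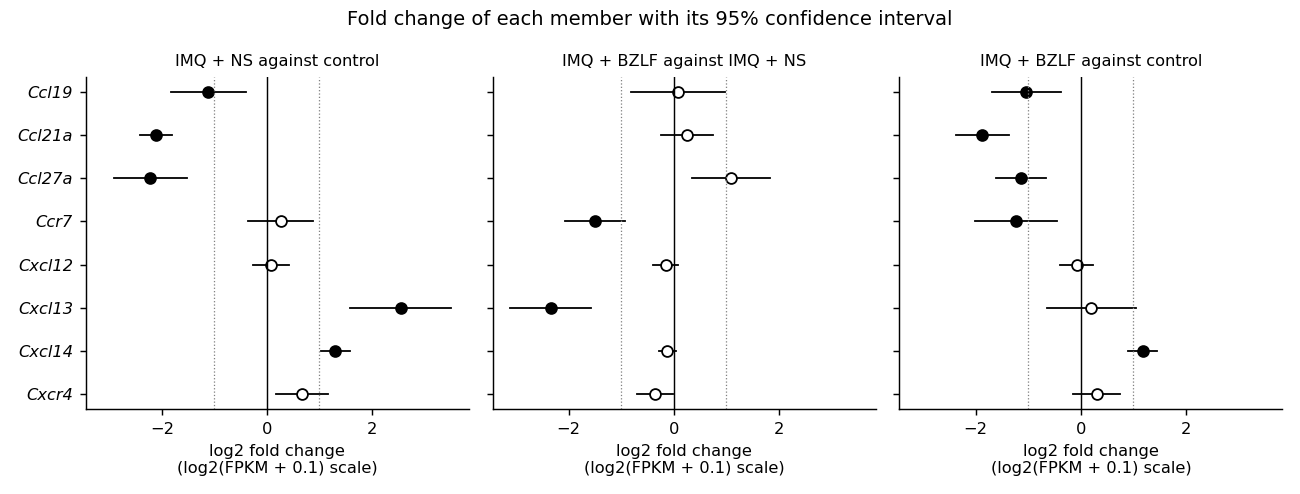
Difference in log2(FPKM + 0.1) of the 8 genes (horizontal axes) for the 3 comparisons, with 95% confidence intervals from limma; filled points were called DEGs and dotted lines mark a log2 fold change of 1 in either direction. Ccl21a and Ccl27a lie at -2.12 and -2.22 in IMQ + NS against control skin, and Cxcl13 and Ccr7 at -2.34 and -1.49 in IMQ + BZLF against IMQ + NS skin.

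Positions and promoters below are those of RefSeq for build GRCm38.p6, in which all 8 genes are protein-coding. Ccl19 (chr4:42754525-42756365, minus strand) and Ccl21a (chr4:42772860-42773991, minus strand) are neighbours, 16.5 kb apart with 0 genes lying wholly between them. Ccl27a (chr4:41769467-41774225, minus strand) lies 980 kb from Ccl19 with 44 genes between. The other genes are on other chromosomes, with Cxcl13 at chr5:95956939-95961068 (plus), Cxcl12 at chr6:117168535-117181368 (plus), Cxcl14 at chr13:56288643-56296811 (minus), Cxcr4 at chr1:128588199-128592299 (minus) and Ccr7 at chr11:99144199-99155077. The 3 ligands that fell in IMQ + NS skin are therefore the 3 on chromosome 4.

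Promoter windows of 250 bases before the annotated start were found for 7 of the 8 genes. Each was searched on both strands for the TATA box TATAAA, the AP-1 motif TGANTCA and the NF-kappa B consensus, which are present in 12.4%, 6.75% and 7.25% of all 32851 windows. Cxcl13 holds a TATA box 46 bases before its start, Cxcr4 holds overlapping ones 32 and 30 bases before, and Ccl27a holds an AP-1 motif 77 bases before the start of one of its 3 windows. The windows of Ccl19, Ccl21a, Cxcl12 and Cxcl14 hold none of these letters. The 4 windows below are those of the ligands that moved most and of Ccl19, the neighbour of Ccl21a, written 5′ to 3′ along the gene's strand with the motif in capitals, and a match is only a match of letters.
Cxcl13 (chr5:95956689-95956938, plus; capitals mark TATAAA): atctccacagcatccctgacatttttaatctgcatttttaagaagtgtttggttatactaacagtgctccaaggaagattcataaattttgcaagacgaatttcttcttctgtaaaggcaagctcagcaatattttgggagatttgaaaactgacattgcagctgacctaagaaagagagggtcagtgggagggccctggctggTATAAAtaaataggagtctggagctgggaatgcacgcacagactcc
Ccl27a (chr4:41770213-41770462, minus; capitals mark AP-1): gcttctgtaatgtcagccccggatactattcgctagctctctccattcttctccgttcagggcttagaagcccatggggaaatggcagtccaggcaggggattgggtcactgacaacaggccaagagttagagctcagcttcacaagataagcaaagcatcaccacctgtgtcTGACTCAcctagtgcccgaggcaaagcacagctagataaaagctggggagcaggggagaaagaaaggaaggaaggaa
Ccl21a (chr4:42773992-42774241, minus; no motif): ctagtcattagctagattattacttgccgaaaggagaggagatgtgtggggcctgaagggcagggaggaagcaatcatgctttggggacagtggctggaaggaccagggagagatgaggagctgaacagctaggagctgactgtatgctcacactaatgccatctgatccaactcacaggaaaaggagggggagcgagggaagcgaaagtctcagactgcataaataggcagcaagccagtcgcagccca
Ccl19 (chr4:42756366-42756615, minus; no motif): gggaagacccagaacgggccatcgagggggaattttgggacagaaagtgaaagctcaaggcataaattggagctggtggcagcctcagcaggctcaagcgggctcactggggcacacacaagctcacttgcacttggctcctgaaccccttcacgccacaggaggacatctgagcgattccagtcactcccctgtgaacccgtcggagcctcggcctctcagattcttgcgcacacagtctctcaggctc

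Ccl21a, a gene of the CCR7 ligand CCL21, read 298, 220, 252 and 285 FPKM in control replicates 1 to 4. The IMQ + NS samples read 66.2, 71.1, 56.4 and 50.2 FPKM, and the IMQ + BZLF samples 44.3, 85.0, 93.9 and 74.2 FPKM. Every control sample was above every sample of both IMQ groups, which overlapped each other. Its mean was 4.33-fold lower in IMQ + NS than in control skin (log2 fold change -2.12, SE 0.13, limma adjusted p = 7.10e-06). Against control skin the IMQ + BZLF mean was 3.55-fold lower (log2 fold change -1.87, SE 0.22, adjusted p = 2.97e-04). Between the IMQ groups the log2 fold change was 0.24 (95% confidence interval -0.25 to 0.74, adjusted p = 0.556). In bulk skin, fewer cells of a type and less RNA per cell cannot be told apart.

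Mouse skin also holds near copies of this gene. Ccl21b was listed at 0 in 11 samples and at 0.00642 FPKM in IMQ + BZLF replicate 2, and Ccl21c was not analysed here. How reads shared by such copies were divided is not given in the sources used here, so the value of Ccl21a may include reads of a copy. The same holds for Ccl27a and its copy Ccl27b, which did not exceed 0.0931 FPKM in any sample.

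Ccl19, the other CCR7 ligand, read 1.19, 1.10, 0.992 and 0.9996 FPKM in the control samples. It read 0.439, 0.691, 0.175 and 0.616 FPKM in IMQ + NS samples and 0.273, 0.413, 0.939 and 0.431 FPKM in IMQ + BZLF samples. All control values exceeded those of both IMQ groups, although IMQ + BZLF replicate 3 came near the lowest control. Ccl19 was 2.23-fold lower in IMQ + NS than in control skin (log2 fold change -1.12, SE 0.31, limma adjusted p = 0.0149). Without IMQ + NS replicate 3, the lowest sample, the log2 fold change was -0.80 and the call was lost. IMQ + BZLF skin was 2.09-fold below control (log2 fold change -1.04, SE 0.29, adjusted p = 0.0158), a call that was lost without control replicate 1 (-0.99), IMQ + BZLF replicate 1 (-0.83) or IMQ + BZLF replicate 2 (-0.99). Between the IMQ groups the difference was 0.08 on the log2 scale (95% confidence interval -0.81 to 0.97, adjusted p = 0.929).

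Ccl27a, the keratinocyte ligand of CCR10, read 17.9, 13.9, 17.9 and 19.8 FPKM in control skin. The IMQ + NS samples read 7.43, 2.96, 2.74 and 2.81 FPKM, with replicate 1 well above the other 3. In the IMQ + BZLF group the values were 5.19, 10.5, 8.07 and 8.39 FPKM. All control samples lay above both IMQ groups, and the IMQ groups overlapped through IMQ + NS replicate 1, which exceeded IMQ + BZLF replicate 1. Ccl27a was 4.36-fold lower in IMQ + NS than in control skin (log2 fold change -2.22, SE 0.30, limma adjusted p = 4.12e-04).

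After BZLF the mean of Ccl27a was 2.02 times that of IMQ + NS skin (log2 fold change 1.09, SE 0.33, 95% confidence interval 0.34 to 1.84). This did not pass the test over all genes (adjusted p = 0.0887). Without IMQ + NS replicate 1 the log2 fold change was 1.43 and passed (adjusted p = 0.00901). Treated skin remained 2.16-fold below control (log2 fold change -1.13, SE 0.21, adjusted p = 0.00219), and this was no longer called without IMQ + BZLF replicate 1, where the log2 fold change was -0.94. The 3′ end of Ccl27a overlaps Il11ra1, on the opposite strand, by 7 bases. Il11ra1, an interleukin 11 receptor gene named here after its values were seen, was at 89.4 ± 16.9 FPKM in control samples, 74.3 ± 8.28 FPKM in the IMQ + NS group and 84.6 ± 3.03 FPKM after BZLF (n = 4 each) and was called in no comparison.

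Cxcl13, the B cell attractant, read 12.9, 10.7, 17.8 and 5.21 FPKM in control samples. It read 32.5, 59.8, 94.0 and 84.1 FPKM in IMQ + NS samples and 9.38, 20.1, 11.0 and 11.0 FPKM after BZLF. Each IMQ + NS sample was above all samples of the other groups, which overlapped each other. The IMQ + NS values themselves spanned a wide range, with replicate 1 lowest. Cxcl13 was 5.81-fold higher in IMQ + NS than in control skin (log2 fold change 2.55, SE 0.42, limma adjusted p = 0.00111). The IMQ + NS mean was 5.26 times that after BZLF (log2 fold change -2.34, SE 0.34, adjusted p = 0.00718). Between IMQ + BZLF and control skin the log2 fold change was 0.20 (95% confidence interval -0.64 to 1.05, adjusted p = 0.665), an interval that reaches a doubling.

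Cxcl14, the steadily made epithelial chemokine, read 40.7, 59.2, 44.0 and 43.4 FPKM in control samples. The IMQ + NS samples read 114, 127, 103 and 116 FPKM and the IMQ + BZLF samples 114, 97.3, 106 and 105 FPKM. The control samples were all below both IMQ groups, replicate 2 being the highest of them, and the IMQ groups overlapped. Cxcl14 was 2.45-fold higher in IMQ + NS than in control skin (log2 fold change 1.31, SE 0.12, limma adjusted p = 5.92e-05) and 2.25-fold higher in IMQ + BZLF skin (1.18, SE 0.12, adjusted p = 1.50e-04). The difference between the IMQ groups was -0.12 on the log2 scale, with a narrow 95% confidence interval of -0.29 to 0.04 (adjusted p = 0.359). Cxcl13 and Cxcl14 thus both rose in the model, and Cxcl13 was the one called lower after BZLF. Whether their responses to BZLF differ was not tested as a difference.

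Cxcl12, the stromal ligand of CXCR4, read 45.2, 37.2, 55.6 and 55.0 FPKM in control samples. It read 44.2, 53.8, 58.5 and 46.2 FPKM in the IMQ + NS group and 39.7, 50.4, 45.5 and 45.9 FPKM after BZLF. All 3 groups overlapped. Log2 fold changes were 0.08 for IMQ + NS against control skin (95% confidence interval -0.26 to 0.42, limma adjusted p = 0.664) and -0.16 in IMQ + BZLF against IMQ + NS skin (-0.39 to 0.08, adjusted p = 0.412). Against control skin, IMQ + BZLF skin was at -0.08 (adjusted p = 0.671).

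Cxcr4, its receptor, read 3.65, 5.40, 2.98 and 3.06 FPKM in control samples. It read 4.74, 6.90, 7.16 and 5.05 FPKM in the IMQ + NS group and 4.37, 3.96, 4.60 and 5.42 FPKM after BZLF. Control replicate 2 lay within the range of the IMQ + NS group, while the other 3 controls lay below it. The mean was 1.58-fold higher in IMQ + NS than in control skin, and the log2 fold change of 0.66 (SE 0.22) passed limma's test (adjusted p = 0.0286) but not the fold limit. Without control replicate 2 it was 0.85 (adjusted p = 0.00231). The adjusted p rose above 0.05 without control replicate 1 (0.0625), 3 (0.0777) or 4 (0.0758), without IMQ + NS replicate 2 (0.0764) or 3 (0.0781), and with samples rescaled to equal sums (0.0678). The change after BZLF was -0.36 (95% confidence interval -0.70 to -0.01, adjusted p = 0.209), and IMQ + BZLF skin was at 0.31 against control (adjusted p = 0.212).

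Ccr7, the receptor of CCL19 and CCL21, read 0.722, 0.355, 0.725 and 1.07 FPKM in control samples. The IMQ + NS samples read 0.793, 0.781, 1.02 and 0.745 FPKM, within the control range. After BZLF it read 0.29997, 0.119, 0.180 and 0.383 FPKM, below every IMQ + NS sample and overlapping the controls only through control replicate 2. Between IMQ + NS and control skin it differed by 0.26 on the log2 scale (95% confidence interval -0.36 to 0.88, limma adjusted p = 0.438), by 0.0048 without control replicate 2 and by 0.46 without control replicate 4. Ccr7 was 3.40-fold lower after BZLF than in IMQ + NS skin (log2 fold change -1.49, SE 0.25, adjusted p = 0.0116), and 2.93-fold lower than in control skin (-1.23, SE 0.35, adjusted p = 0.0159). These levels are low, and adding 1 FPKM in place of 0.1 before the logarithm brought the log2 fold changes to -0.56 and -0.45, under the fold limit, with adjusted p = 0.00691 and 0.0161. In IMQ + NS against control skin the ligand genes Ccl21a and Ccl19 were called and Ccr7 was not. Between the IMQ groups Ccr7 was called and these ligand genes were not. In IMQ + BZLF against control skin Ccr7, Ccl21a and Ccl19 were all called lower. Whether these effects differ between the genes was not tested.

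By the two-sided exact permutation test over samples, each gene whose groups did not overlap had p = 0.0286, the smallest value that 4 against 4 samples allow. Leaving out control replicate 2 changed no call of the 8 genes against control skin. The log2 fold changes in IMQ + NS skin were then -2.20 for Ccl21a, -2.32 for Ccl27a, -1.10 for Ccl19, 2.55 for Cxcl13 and 1.42 for Cxcl14. In IMQ + BZLF skin they were -1.96 for Ccl21a, -1.23 for Ccl27a, -1.02 for Ccl19, -1.49 for Ccr7 and 1.30 for Cxcl14.

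A further list held chemokine receptors, atypical receptors and the chemokine-cleaving protease gene Dpp4, some of which act on other ligands. Of 7 genes of this list tested, 3 (Ackr3, Ackr4 and Ackr2) were called lower by limma in IMQ + NS against control skin and 0 higher, also 0 higher at an unadjusted p below 0.05, with a median log2 fold change of -0.93. Ackr3, which removes CXCL12, read 44.9, 24.2, 52.3 and 37.8 FPKM in control and 12.6, 15.2, 10.9 and 12.2 FPKM in IMQ + NS samples. The groups did not overlap (log2 fold change -1.59, SE 0.22, limma adjusted p = 4.58e-04). IMQ + BZLF samples, at 13.9 ± 1.92 FPKM, were also below control (-1.47, adjusted p = 9.06e-04).

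Ackr4, which removes CCL19 and CCL21, read 6.87, 6.60, 8.26 and 8.27 FPKM in control samples and 4.07, 3.63, 2.22 and 2.32 FPKM in IMQ + NS samples (log2 fold change -1.31, limma adjusted p = 8.69e-04). It was at 4.09 ± 0.944 FPKM after BZLF, where the log2 fold change against control was -0.88 and under the fold limit. Thus Ackr4, Ccl19 and Ccl21a, a scavenger and its ligands, were all called lower in the model. Ackr2, the scavenger of inflammatory CC chemokines, fell from 3.76 ± 1.03 FPKM in control to 0.848 ± 0.197 in IMQ + NS skin (-2.01, adjusted p = 1.85e-04).

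Between the IMQ groups 1 of these 7 genes was called lower, 0 were called higher (1 at an unadjusted p below 0.05), and the median was 0.12. The gene called was Ccrl2, an atypical receptor that binds chemerin (log2 fold change -1.08, limma adjusted p = 0.00983). Against control skin, IMQ + BZLF skin had 3 of the 7 called lower (Ackr2, Ackr3 and Ccrl2), 0 higher with or without adjustment, and a median of -0.88. Ccr10, the CCL27 receptor, was at 0.245, 0.260 and 0.176 FPKM on average in control, IMQ + NS and IMQ + BZLF skin and was called in no comparison. Ccl28, the other CCR10 ligand, was at 0.140, 0.129 and 0.103 FPKM in the same order and was likewise not called. Cxcr5, the CXCL13 receptor, was listed at 0 in 5 of 12 samples, reached at most 0.0754 FPKM and was too low to test. Ackr1 was not analysed here.

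A list of 13 other constitutive or leukocyte-homing chemokine genes and receptors was compared in IMQ + NS and control skin. By limma 4 were higher at a p below 0.05, unadjusted and adjusted, but under the fold limit. So 0 were called higher, with a median log2 fold change of 0.31 over the list, and 2 were called lower. These were Ccl8, a chemokine for monocytes and T cells, at 827 ± 98.1 FPKM in control and 172 ± 57.0 in IMQ + NS skin (-2.32, limma adjusted p = 7.12e-05), and Ccl17, a CCR4 ligand (-1.62, adjusted p = 0.00104). After BZLF 2 of the 13 were called lower against IMQ + NS skin, 0 higher with or without adjustment, and the median was -0.51. These were Cxcl16, the ligand of CXCR6, which went from 27.5 ± 5.83 to 12.2 ± 2.45 FPKM (-1.17, adjusted p = 0.00866), and Cx3cr1, the fractalkine receptor (-1.42, adjusted p = 0.0366). Against control skin, IMQ + BZLF skin had 3 called lower, 0 higher (1 at a p below 0.05, unadjusted and adjusted, but under the fold limit) and a median of -0.33. They were Ccl8, Ccl17 and Ccl22, the last a CCR4 ligand named after its values were seen (-1.51, adjusted p = 0.0237). Ccl22 read 0.370, 0.517, 1.09 and 2.39 FPKM after BZLF, the last within the control range of 2.21 to 3.08 FPKM. Ccl17 was low, at 0.604, 0.128 and 0.150 FPKM on average in control, IMQ + NS and IMQ + BZLF skin.

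**Figure D3:**
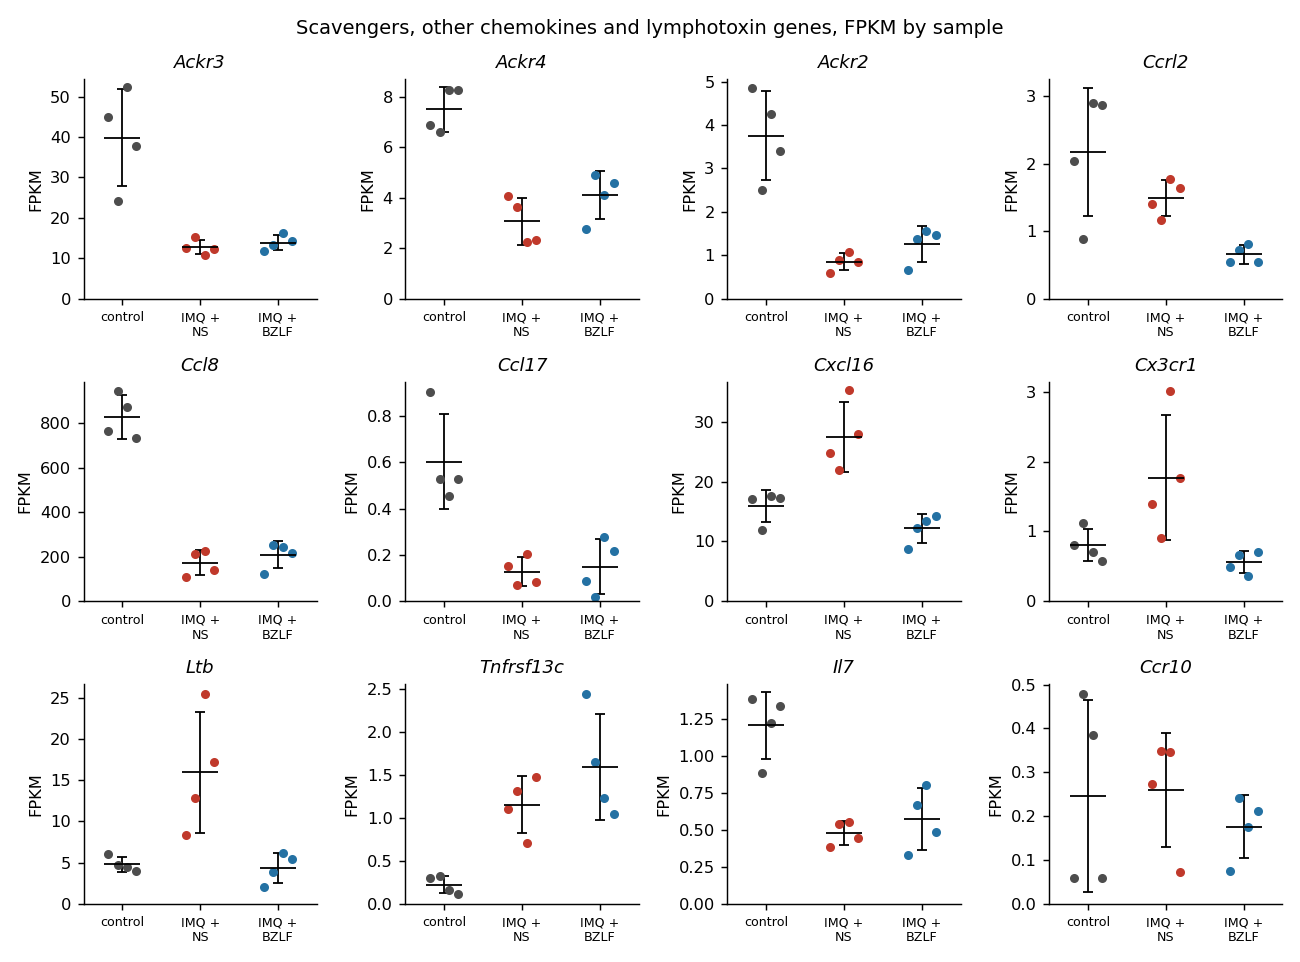
FPKM (vertical axes, linear and starting at 0) of scavengers, other chemokine genes and genes of the lymphotoxin list by group, with each sample as a point, the mean as a long bar and SD as error bars (n = 4). Ackr3, Ackr4, Ackr2, Ccl8 and Ccl17 are lower in IMQ + NS than in control skin without overlap, while Ltb is above the other groups in every IMQ + NS sample.

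Lymphotoxin and noncanonical NF-kappa B signalling is the textbook inducer of CXCL13, CCL19 and CCL21 in lymphoid stroma. The list kept for this pathway has 14 genes and includes Il7, a lymphocyte survival factor gene. Of these, 2 were called higher and 1, Il7, lower in IMQ + NS against control skin, with a median log2 fold change of 0.17. Ltb, which encodes lymphotoxin beta, read 6.01, 4.70, 4.51 and 3.93 FPKM in control samples. It read 8.29, 12.9, 25.5 and 17.2 FPKM in the IMQ + NS group and 2.07, 3.90, 6.16 and 5.42 FPKM after BZLF. Its IMQ + NS samples were all above the other groups, which overlapped each other. Whether lymphotoxin acts on Cxcl13, Ccl19 or Ccl21a in these samples was not tested. Ltb rose in the model (log2 fold change 1.62, limma adjusted p = 0.00229). It was the 1 of 14 genes called lower after BZLF against IMQ + NS skin (-1.83, adjusted p = 0.0282), with 0 higher and a median of -0.47. At an unadjusted p below 0.05, 7 of the 14, Ltb included, were lower after BZLF and 0 higher. Tnfsf13b (-0.89) and Nfkb2 (-0.52), named after their values were seen, passed limma's test (adjusted p = 0.0214 and 0.0323) but not the fold limit. The share of all genes at that unadjusted p was not counted, for this list or the others.

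Tnfrsf13c, the receptor of the B cell survival factor BAFF, was the other gene that rose in IMQ + NS skin (mean levels of 0.223, 1.15 and 1.59 FPKM in control, IMQ + NS and IMQ + BZLF skin; log2 fold change 1.97, limma adjusted p = 5.84e-04). Il7, a lymphocyte survival factor, was the one that fell (-1.16, adjusted p = 8.61e-04). Against control skin, IMQ + BZLF skin had 1 gene called higher, Tnfrsf13c, and 2 called lower, with a median of -0.30. The lower ones, named after their values were seen, were Tnfrsf11a, which encodes RANK (-1.02, adjusted p = 0.00714), and Tnfsf13b, which encodes BAFF (-1.01, adjusted p = 0.00620).

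Marker lists of cell types that make or answer these chemokines are given beside the genes, and where they moved with the groups their part in the results was not tested. Beside the fall of Ccl21a, 4 of 6 lymphatic endothelium markers were called lower in the model, namely Lyve1 (log2 fold change -2.22), Prox1 (-1.29), Mmrn1 (-1.51) and Reln (-1.65). The summed level of all 6 markers ranged from 66.8 to 83.1 FPKM in control samples, 37.9 to 41.7 FPKM in the IMQ + NS group and 25.3 to 40.2 FPKM after BZLF. Pdpn, named after its values were seen and called in no comparison, made up 34.9, 28.0 and 21.6 FPKM of these on average. Between the IMQ groups limma called 0 of 6 (1 higher and 1 lower at an unadjusted p below 0.05), and 5 of 6 were lower in IMQ + BZLF than in control skin.

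Beside Ccl19 and Ackr3, 6 of 7 fibroblast markers were called lower in both IMQ groups against control skin. These were Col1a1, Col1a2, Col3a1, Dcn, Lum and Dpt. The remaining marker, Pdgfra, named after its values were seen, was called in no comparison. Its means were 16.0, 15.3 and 14.5 FPKM in control, IMQ + NS and IMQ + BZLF skin. The 7 markers summed to between 13517 and 19322 FPKM in control samples, 3817 and 5076 FPKM in the IMQ + NS group and 4468 and 8386 FPKM after BZLF. Cxcl12, also a fibroblast product, was not called in the same samples. Of 6 blood endothelium markers, 0 were called by limma in any of the 3 comparisons, although 5 were lower in IMQ + NS and 6 in IMQ + BZLF than in control skin at an unadjusted p below 0.05, all within the fold limit. Those 6 also passed limma's test after adjustment (adjusted p from 0.00166 to 0.0212), as did most of the 5, so the fold limit alone stopped these calls. Fibroblast markers had 0 of 7 called between the IMQ groups, and 4 were higher after BZLF at an unadjusted p below 0.05. Of these, Dpt (0.75) also passed limma's test after adjustment (adjusted p = 0.0296) but not the fold limit.

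Beside the fall of Ccl27a and the rise of Cxcl14, 5 of 8 epidermal keratinocyte markers were called higher and 0 lower in IMQ + NS against control skin, also 0 lower without adjustment, with sums of 2481 to 4478 FPKM in control and 5692 to 9181 in IMQ + NS samples. The differentiation gene Krtdap was at -0.03 and the suprabasal keratin Krt10 at 0.22 on the log2 scale, and the desmosome gene Dsg1a at 0.60 was under the fold limit. After BZLF 1 of the 8, the basal keratin Krt14, was called lower against IMQ + NS skin (6 at an unadjusted p below 0.05) and 0 higher, with sums of 2574 to 4697 FPKM. Krt5 (-0.78), Dsg3 (-0.85) and Trp63 (-0.25) also passed limma's test (adjusted p = 0.0183, 0.00468 and 0.0416) but not the fold limit. Hair follicle markers, 4 of 8 called higher and 1 lower (Sox2, -1.43) in IMQ + NS against control skin, summed to at least 262 FPKM in every IMQ + NS sample and 315 FPKM in every IMQ + BZLF sample. Krt75 and Msx2 made up 217 and 55.7 FPKM of this on average in IMQ + NS skin and 257 and 71.6 FPKM after BZLF. Sebaceous gland (4 of 6), adipocyte (4 of 6) and skeletal muscle (6 of 6) markers were called lower in IMQ + NS than in control skin. The sebaceous gene Elovl3 was at 46.9 FPKM in control and 92.7 FPKM in IMQ + NS skin on average (log2 fold change 0.93, limma adjusted p = 0.00511, under the fold limit).

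Beside Cxcl13, B cell markers summed to between 1.68 and 3.05 FPKM in control samples, 5.81 and 7.83 FPKM in the IMQ + NS group and 1.76 and 3.54 FPKM after BZLF. Of 4 tested, 3 were called higher in IMQ + NS skin, Cd79b (log2 fold change 1.62), Cd22 (1.89) and Blk (1.31), and Cd79b was called lower after BZLF (-1.39). The defining markers Ms4a1 and Pax5 were too low to test and reached at most 0.111 and 0.0318 FPKM. The follicular dendritic cell marker Cr2 was listed at 0 in 10 of 12 samples, and of that list Clu alone was called higher in IMQ + NS skin (1.38). Neutrophil markers, 7 of 7 higher in IMQ + NS skin and 7 of 7 lower after BZLF, summed to 31.9 to 50.6, 3128 to 9892 and 62.7 to 83.6 FPKM in control, IMQ + NS and IMQ + BZLF samples. On average S100a8 and S100a9 made up 3010 and 2909 FPKM of the IMQ + NS sum. Csf3r at 14.8, Retnlg at 13.2, Cxcr2 at 6.49, Mmp8 at 2.40 and Ly6g at 0.856 FPKM made up the rest.

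Beside the fall of Ccr7 after BZLF, 0 of 8 T cell markers and 0 of 6 mature dendritic cell markers were called by limma between the IMQ groups. At an unadjusted p below 0.05, 3 T cell and 2 mature dendritic cell markers were lower and 0 higher. T cell markers summed to between 16.8 and 23.1 FPKM in control samples, 12.9 and 24.3 FPKM in the IMQ + NS group and 7.32 and 14.8 FPKM after BZLF, and 3 of 8 were lower in IMQ + BZLF than in control skin. For mature dendritic cell markers the sums were 36.9 to 54.7, 48.0 to 56.6 and 42.8 to 53.5 FPKM, of which Fscn1, an actin-bundling gene, made up 26.1, 41.7 and 40.2 FPKM on average. The median log2 fold change of that list was -0.49 in IMQ + NS and -1.21 in IMQ + BZLF skin, each against control. Of those markers, 2 of 6 were lower in IMQ + NS skin (Cd83 and Socs2) and 4 of 6 in IMQ + BZLF skin, each against control. Langerhans cell markers had 0 of 4 called by limma between the IMQ groups, and 0 at an unadjusted p below 0.05. Against control skin Epcam, an epithelial adhesion gene, was called higher in IMQ + NS (1.10) and IMQ + BZLF skin (1.02), and Cd207, which encodes langerin, was called lower in IMQ + BZLF skin (-1.02, adjusted p = 0.00686) and was at -0.92 in IMQ + NS skin. Macrophage markers, which summed to between 620 and 876 FPKM in the IMQ + NS group and 404 and 601 FPKM after BZLF, had 1 of 7, Adgre1, called lower (-1.36), and 4 lower at an unadjusted p below 0.05. C1qb (-0.52), named after its values were seen, also passed limma's test (adjusted p = 0.0470) but not the fold limit.

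**Figure D4:**
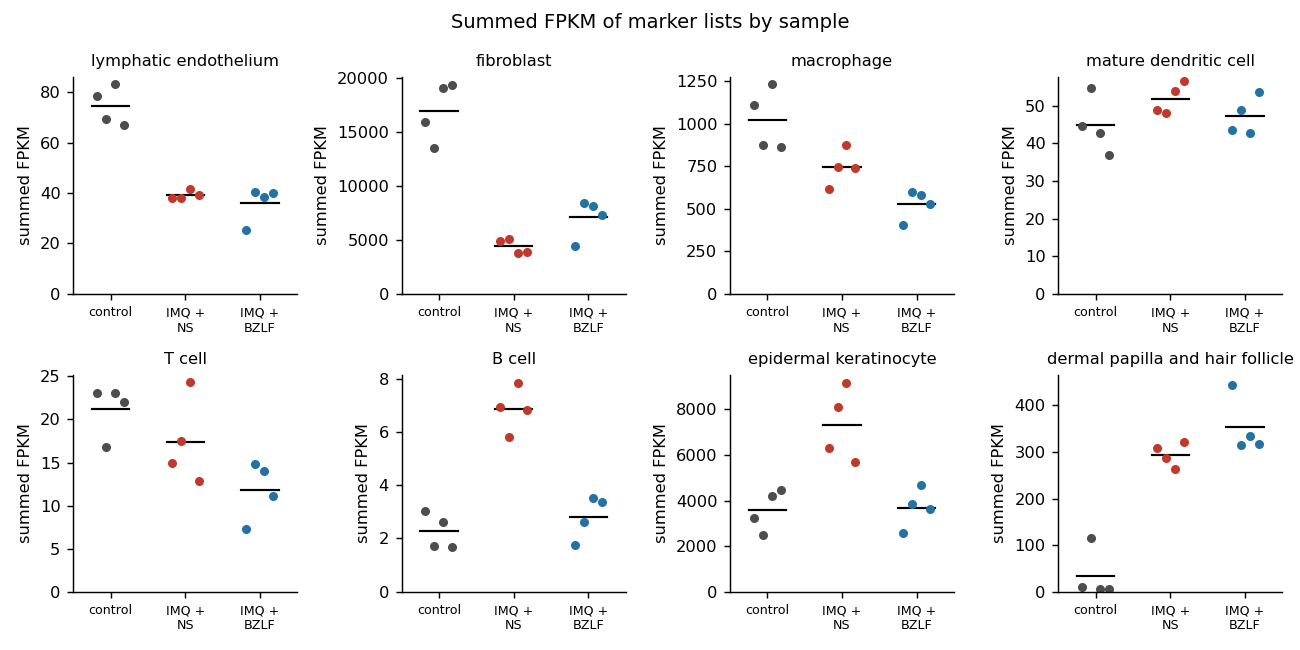
Summed FPKM of 8 cell type marker lists (vertical axes, linear and starting at 0) by group, with each sample as a point and the mean as a bar (n = 4). Lymphatic endothelium sums are at least 66.8 FPKM in control samples and at most 41.7 FPKM in the other groups, and B cell sums are highest in the IMQ + NS samples, from 5.81 to 7.83 FPKM.

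For each of the 8 genes, the 3 genes with the most similar pattern over the 12 samples were sought among genes with a mean of at least 1 FPKM, by the root mean square (RMS) difference of centred log2(FPKM + 0.1) values. This describes likeness only, and the 12 points share their groups. Ccl21a was closest to H2-Eb1 (RMS 0.130), Nupr1 (0.166) and Cd74 (0.174), against a spread of 0.987 of Ccl21a itself, and H2-Eb1 and Cd74 encode parts of the antigen-presenting MHC class II machinery. Cxcl13 was closest to Sirpb1c (0.408), Csf3r (0.434) and Sirpb1a (0.439), against its own spread of 1.28, and Csf3r is the receptor of the neutrophil growth factor G-CSF.

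Closest to Ccl27a were Adcy1 (RMS 0.221), Ecm2 (0.247) and Alox12e (0.293), the last an epidermal lipoxygenase gene, against its own spread of 0.998. Ccl19 was nearest to Cma1 (0.302), which encodes mast cell chymase, Rpl39l (0.316) and Rtl8a (0.343), with an own spread of 0.690. For Cxcl14 the nearest were Slc35f6 (0.0907), S100a16 (0.0980) and Serpinb5 (0.101), the last an epithelial serpin gene, against 0.605.

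Ccr7, with a spread of 0.761, was nearest to Hcar2 (RMS 0.378), Slc16a3 (0.384) and Napsa (0.386). Cxcr4, with a spread of 0.377, was nearest to Zfp566 (0.147), Nmd3 (0.150) and Vcam1 (0.158), the last an adhesion molecule gene. Cxcl12 varied least, with a spread of 0.192, and Tmco4 (0.094), Irak2 (0.111) and Atp6v0b (0.114) were nearest to it.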

How the data were processed

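RNA-seq values of mouse back skin from 12 samples, 4 per group, were used as the authors deposited them, in FPKM per gene, with 1 column per sample. Groups came from the sample labels. The study's methods describe Bowtie2 alignment, eXpress quantification and DESeq2 tests of counts by the authors, whereas the submitters' processing notes name fastp, HISAT2, HTSeq, R 3.2.0 and build mm10, and the sources also differ in library kit. Which steps made the deposited values is therefore unsettled. Of 21375 low values, 23.4% lay within 0.05 of a whole multiple of their gene's smallest value, so counts were not rebuilt.

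Genes with a mean of at least 0.1 FPKM were tested on log2(FPKM + 0.1) in R 4.3.3 with limma 3.58.1 (moderated variances with a trend), in pairs of groups of 4, with Benjamini-Hochberg adjustment over 15288 genes. The procedure was tested on simulated data. An exact permutation test over samples, two-sided, was run for each of the 8 genes. Python 3.11.15, pandas 2.3.3, scipy 1.17.1 and matplotlib 3.10.9 were used, and 18369 symbols were found in RefSeq.

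The 8 genes and all lists were chosen with earlier results of these data known. Named genes were the 8, Ackr3, Ackr4, Cxcr5, Ccr10, Ccl28, the near copies, the 3 most similar genes of each, genes of the 3 partner lists called in IMQ + NS against control or IMQ + BZLF against IMQ + NS skin, and marker genes called or listed at 0. Other names are marked in the text, and 1 marker gene is not reported here. Alternatives covered the added constant, the filter, scaling, variance moderation, a replicate block and leaving out each sample.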

Additional observations from a re-analysis of the deposited data

Results flagged for a closer look

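In each of the 24 sets of 4 samples formed by the 8 genes and 3 groups, the highest and lowest samples were compared with the rest by Dixon's criterion, which flags about 1 in 20 sets by chance, and 2 sets had a sample that stood apart. Ccl27a in IMQ + NS replicate 1 was 7.43 FPKM, against 2.74 to 2.96 FPKM in the other 3 samples, a gap of 0.953 of the whole range. Cxcl13 in IMQ + BZLF replicate 2 was 20.1 FPKM, against 9.38 to 11.0 FPKM in the others, a gap of 0.851 of the range.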

How the results depend on the processing

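The number of the 8 genes called in IMQ + BZLF against IMQ + NS skin was 1 in place of 2, and in IMQ + BZLF against control skin 3 in place of 5, with 1 FPKM added before the logarithm and with a minimum mean of 1 FPKM, where Ccl19 and Ccr7 are not tested. It was also 3 against control skin without IMQ + BZLF replicate 1. Leaving out 1 sample gave 4 to 5 calls in IMQ + NS against control, 2 to 3 in IMQ + BZLF against IMQ + NS and 3 to 5 in IMQ + BZLF against control skin, and the genes without overlap numbered 5 to 6, 2 to 4 and 4 to 6. The smallest exact p with 3 against 4 samples is 0.0571, so those are counts without a test. Leaving out a sample can only keep or raise a count without overlap. The matching share over all genes was not counted, so these ranges say nothing particular to the 8 genes. Uncalled log2 fold changes that turned direction were Cxcl12 in IMQ + NS against control skin (-0.053 with samples rescaled to equal sums, -0.0385 without control replicate 2, where leaving out 1 sample gave -0.0385 to 0.155), Ccl19 between the IMQ groups (-0.241 without IMQ + NS replicate 3, -0.207 without IMQ + BZLF replicate 3, over a range to 0.286) and Cxcl13 in IMQ + BZLF against control skin (-0.135 without control replicate 4, -0.032 without IMQ + BZLF replicate 2, over a range to 0.448). Ccl19 in IMQ + NS against control skin was -0.50 with 1 FPKM added and lost its call, as it did in IMQ + BZLF against control skin at -0.47. The cause was not tested. Over single values, 299 of 306 under other settings and 181 of 192 with a sample left out kept direction and side of the threshold. Rescaling to equal sums moved the median log2 fold change of all genes in IMQ + NS against control skin from 0.05 to -0.07, and quantile normalization also to -0.07, with 5 of the 8 genes called under each.

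Whether replicate numbers pair the samples is unsettled. Correlations of same-numbered samples ranged from -0.15 to 0.26. Samples numbered 3 and 4 were closest to their own number in each comparison, and those numbered 2 in none. A replicate block left 5, 2 and 5 of the 8 genes called and 3414, 382 and 2984 of all genes. Over all genes the calls numbered 3418, 385 and 3017 in the 3 comparisons in the order given above, 8569, 986 and 8098 with no fold limit, and 2191, 205 and 1844 with 1 FPKM added, and 252 in IMQ + BZLF against IMQ + NS skin without IMQ + NS replicate 3. Of these, the genes called higher numbered 49 in that comparison. They numbered 25 or 29 when replicate 3 or 4 of the IMQ + NS group was left out, and 78 or 19 when replicate 1 or 2 of the IMQ + BZLF group was. Unknown read depth limits what can be said of genes under 1 FPKM, Ccl19 and Ccr7 among them.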
